A study of Mus musculus with 20 samples.

Results

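The ERK feedback genes are 10 genes that restrain or relay signalling through the kinase ERK and are themselves transcribed when ERK is active. They were chosen by name, with earlier results of these data known: the phosphatases Dusp1, Dusp4, Dusp5 and Dusp6, the Sprouty and Spred inhibitors Spry2, Spry4, Spred1 and Spred2, and the PEA3 factors Etv4 and Etv5 of the ETS family. All 10 were among the 11075 genes of the count table. RNA was measured in NIH3T3 cells, an established line of mouse embryonic fibroblasts, in 20 libraries of 5 groups with 4 libraries each. Control cells were kept at 5% CO2 and taken at 0 h. The other groups were exposed to 1% CO2, or received 18 mM NaOH, for 2 h or 4 h. All groups were grown in the same bicarbonate-buffered medium and treated on day 4 after plating. The labels give no CO2 level for the NaOH groups, which by the study's methods stayed at 5% CO2, and low CO2 was reached by moving dishes to another incubator. The 0 h libraries served as control for both treatments and untreated cells of 2 h or 4 h were not analysed here, so treatment cannot be told apart from time in the experiment or from handling. The labels do not say that the replicates came from separate cultures. The paper calls the 4 of a group biological replicates and does not say how they were kept apart. The p-values measure only the spread between these libraries.

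In the ERK cascade, growth factor receptors activate RAS, RAS activates RAF, and RAF and MEK pass the signal to ERK by phosphorylation. Active ERK turns on genes whose products act against it: DUSP phosphatases remove phosphate from ERK or its relatives p38 and JNK, and Sprouty and Spred proteins act near the receptors and RAS. The PEA3 factors are transcription factors made in response to the same signal. In fibroblasts, serum and growth factors drive this pathway, and transcripts of the feedback genes are often taken as a readout of ERK activity, although ERK itself was not measured in these libraries.

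The libraries were made by MARS-seq, which counts the 3′ ends of transcripts with unique molecular identifiers (UMIs), so that each count stands for 1 captured RNA molecule. Library totals ranged from 1325293 to 5640523 counts. A library of cells kept at 1% CO2 for 2 h, replicate 3, was placed at -13.8 by the first principal component of the tested genes, while the rest of its group fell between -9.68 and -8.66. The shallowest library was replicate 2 of NaOH at 2 h. Counts of changed ERK feedback genes against 0 h were the same without either of them, 7 after 2 h at 1% CO2 and 5 after 2 h of NaOH. All 8 fibroblast markers of a fixed list were in the table, with a summed level of 114100 to 127800 normalized counts at 0 h and 107300 to 145000 over all groups. Cdh1 and Krt19, the 2 of 5 epithelial markers in the table, summed to at most 12.25 normalized counts in any library, and Cd68, the 1 of 5 immune markers, stayed at 9.16 or below.

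The promoters of 3 phosphatases are shown: that of Dusp6, which rose in every treated group, that of Dusp1, whose level lay on opposite sides of the control in the 2 treatments, and that of Dusp5, the only other window that held a regulatory element of those searched apart from the Sp1 or KLF box. RefSeq windows on GRCm38.p6, from 250 bases before to 50 bases after a start site, were held for 7 of the 10 genes (Dusp1, Dusp5, Dusp6, Spry2, Spred1, Spred2 and Etv5, the last with 2 windows). The windows lie at chr17:26508423-26508722 (minus strand) for Dusp1, chr19:53528895-53529194 (plus strand) for Dusp5 and chr10:99262981-99263280 (plus strand) for Dusp6. Capitals mark a cyclic AMP response element (TGACGTCA) in Dusp1 and a pair of CArG boxes, the element bound by serum response factor, in Dusp5. Sequences run 5′ to 3′ on the strand of the gene.
Dusp1: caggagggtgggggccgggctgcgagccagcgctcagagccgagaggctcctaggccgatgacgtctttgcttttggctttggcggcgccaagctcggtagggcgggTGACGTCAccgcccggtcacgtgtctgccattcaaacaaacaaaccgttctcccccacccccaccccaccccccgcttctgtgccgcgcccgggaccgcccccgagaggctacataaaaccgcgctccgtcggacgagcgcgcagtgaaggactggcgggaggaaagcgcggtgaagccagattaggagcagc
Dusp5: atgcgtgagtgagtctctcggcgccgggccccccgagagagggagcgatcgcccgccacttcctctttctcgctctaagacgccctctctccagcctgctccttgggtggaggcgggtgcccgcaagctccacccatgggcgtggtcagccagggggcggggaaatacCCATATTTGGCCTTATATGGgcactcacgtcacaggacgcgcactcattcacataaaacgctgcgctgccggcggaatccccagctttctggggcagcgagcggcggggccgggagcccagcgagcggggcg
Dusp6: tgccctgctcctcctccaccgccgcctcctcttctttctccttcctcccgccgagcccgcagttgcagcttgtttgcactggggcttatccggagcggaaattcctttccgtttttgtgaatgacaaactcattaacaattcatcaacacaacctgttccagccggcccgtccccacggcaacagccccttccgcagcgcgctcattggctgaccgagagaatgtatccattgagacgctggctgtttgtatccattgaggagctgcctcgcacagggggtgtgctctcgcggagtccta

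Both strands of each window were searched for 6 motifs. TGACGTCA was found in 1.79% of 32851 RefSeq windows of the same length, and among the 7 genes only in Dusp1, at bases -143 to -136 from the start site. The CArG box was found in 1.63% of windows, and among the 7 genes only in Dusp5, at bases -82 to -73 and -72 to -63, side by side without overlap. No window of the 7 genes held the AP-1 site TGACTCA (5.20% of all windows), the ETS site CCGGAAG (8.86%) or the TATA box TATAAA (13.6%). GGGCGG, the Sp1 or KLF box (35.7% of all windows), matched in Dusp1, Dusp5, Spred1, Spred2 and the upstream window of Etv5. These matches are a description of the letters in the windows, and neither binding nor promoter activity was measured.

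Dusp6, the cytoplasmic phosphatase specific to ERK (chromosome 10, 99263231 to 99267489 on GRCm38), rose in every treated group. In control cells its level was 30.1, 29.5, 29.0 and 34.4 normalized counts in the 4 libraries. After 2 h at 1% CO2 it was 239.9, 224, 279 and 229, and after 4 h 133, 169.8, 181 and 166. After 2 h of NaOH it was 119.8, 218, 159.6 and 159, and after 4 h 110.2, 88.2, 120.4 and 100.3. The lowest treated library was above the highest control library, and the 2 h level at 1% CO2 was the highest of the 5 groups. On the log2 scale the fold change (log2FC) from 0 h was 2.98 ± 0.15 (standard error, SE) after 2 h at 1% CO2, with an adjusted p of 3.5e-18 by edgeR's quasi-likelihood test with Benjamini-Hochberg adjustment over all 9726 genes tested, as for every adjusted p given here. After 4 h at 1% CO2 it was 2.39 ± 0.16 (adjusted p = 7e-15), and with NaOH it was 2.35 ± 0.16 at 2 h and 1.77 ± 0.16 at 4 h (adjusted p = 6e-15 and 1.6e-11). A gene was called when its adjusted p was at most 0.05 and its fold change at least 2 in either direction, a log2FC of 1.

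Dusp1, an immediate early phosphatase that acts on p38, JNK and ERK (chromosome 17, 26505591 to 26508472), did not follow Dusp6. Its level at 0 h was 213, 237, 173 and 242 normalized counts. At 1% CO2 it was 125, 170.1, 169.7 and 150.4 after 2 h and 163, 156, 171 and 171 after 4 h, and every one of these libraries was below every control library. With NaOH it was 343, 340.2, 386 and 382 after 2 h and 303, 405, 360.1 and 321 after 4 h, and every library was above every control library. None of these changes reached 2-fold. The log2FC from 0 h was -0.49 ± 0.11 and -0.40 ± 0.11 at 1% CO2 (adjusted p = 8.8e-04 and 0.0053 at 2 h and 4 h) and 0.74 ± 0.11 and 0.67 ± 0.11 with NaOH (adjusted p = 6e-07 and 1.7e-06). Dusp1 was thus the only tested member whose difference from 0 h was negative at 1% CO2.

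Dusp4, a nuclear phosphatase of the same subfamily (chromosome 8, 34807610 to 34819894), was nearly silent in control cells and rose with both treatments. Control libraries held 1.67, 3.19, 6.68 and 2.4 normalized counts. Cells at 1% CO2 held 10.5, 22.7, 6.49 and 15.7 after 2 h and 13.7, 17.4, 9.91 and 17.4 after 4 h. NaOH-treated cells held 34.4, 31.2, 39.0 and 37.2 after 2 h and 33.9, 25.2, 34.0 and 35.9 after 4 h, above all libraries at 0 h and at 1% CO2. Only replicate 3 of 1% CO2 at 2 h overlapped the control libraries. The log2FC from 0 h was 2.14 ± 0.39 and 2.18 ± 0.40 at 1% CO2 (adjusted p = 5.2e-05 and 4.4e-05) and 3.48 ± 0.34 and 3.34 ± 0.33 with NaOH (adjusted p = 8.5e-11 and 1.2e-10). Beside this difference between the treatments, Des and Acta1, the 2 of 4 muscle markers in the table, summed to 22.4 to 35.7 normalized counts at 0 h, to 49.5 to 74.0 at 1% CO2 and to 251.9 to 327 with NaOH. Acta1 alone made up the higher sums, with 3.98 to 8.36 normalized counts at 0 h, 35.2 to 48.3 at 1% CO2 and 226 to 312 with NaOH, while Des lay between 16.8 and 27.9 at 0 h and between 9.30 and 28.0 in the treated groups. The part of these genes in the differences of Dusp4 or Dusp1 was not tested.

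Dusp5, a nuclear phosphatase specific to ERK (chromosome 19, 53529145 to 53541809), was measured in few molecules. Its mean over all libraries, 2.5 normalized counts, was below the minimum of 5 set for testing. Over 4 libraries the raw counts summed to 1 at 0 h, 5 and 10 after 2 h and 4 h at 1% CO2, and 18 and 9 after 2 h and 4 h of NaOH. In NaOH-treated cells at 2 h every library had at least 3 counts of Dusp5, while 3 of the 4 control libraries had none. The ratio of summed counts to 0 h, scaled for library size, was 29.0 with a 95% exact interval of 4.58 to 1210 after 2 h of NaOH, and 6.25 with an interval of 0.70 to 296 after 2 h at 1% CO2. Such intervals cover counting error only. When all genes of the table were tested, Dusp5 was called higher than at 0 h after 4 h at 1% CO2 (adjusted p = 0.015) and after 2 h and 4 h of NaOH (adjusted p = 0.00038 and 0.025), and not after 2 h at 1% CO2 (adjusted p = 0.23).

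**Figure D1:**
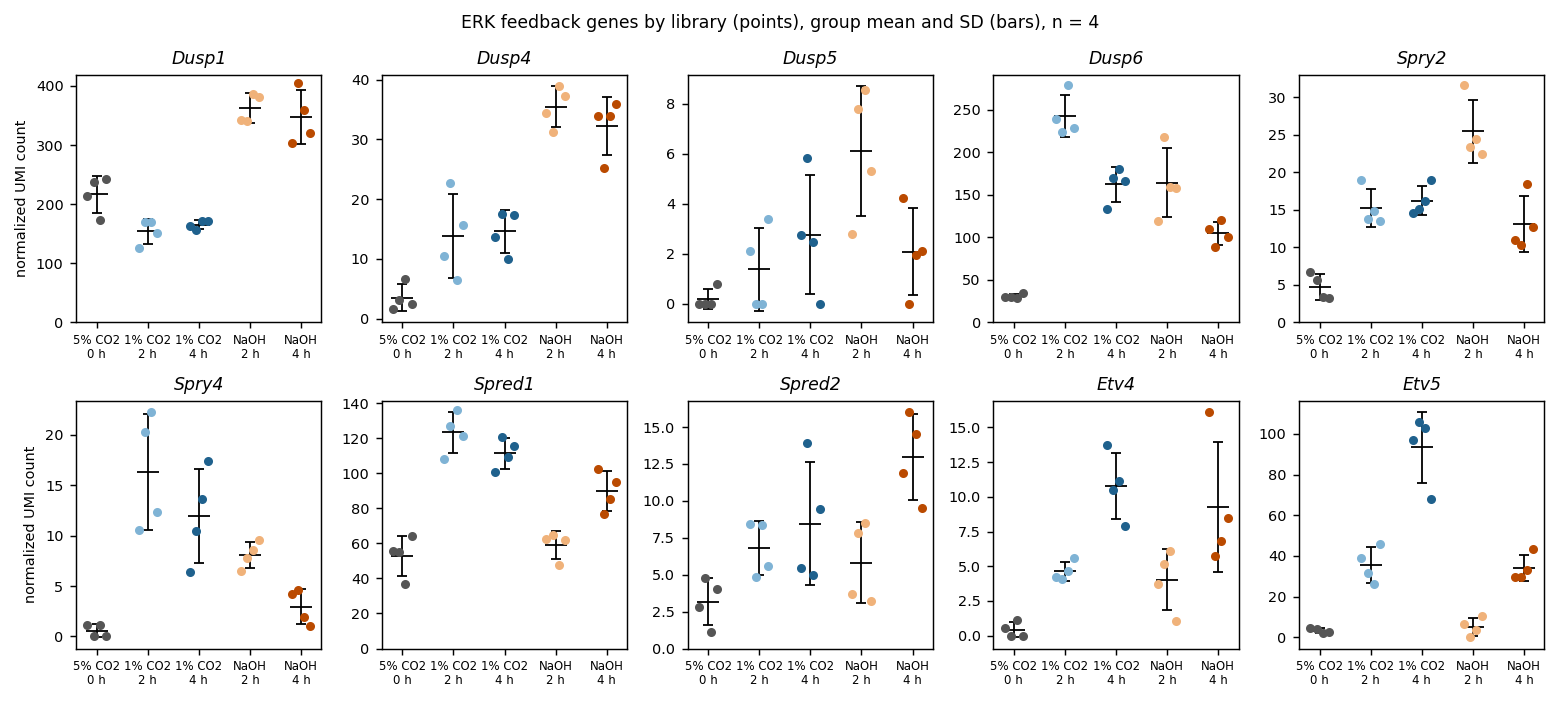
Normalized UMI counts of the 10 ERK feedback genes, 1 panel per gene, in the 5 groups on the x axis. Points are the 4 libraries of a group and bars the group mean with its SD. Dusp1 lies below its control libraries at 1% CO2 and above them with NaOH, while Dusp6 rises from about 30.7 normalized counts in control cells to its highest mean, 243, after 2 h at 1% CO2.

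Spry4, an inhibitor that blocks the route from receptor to RAS and ERK (chromosome 18, 38586247 to 38601347), rose most at 1% CO2. Its raw counts summed to 3 over the control libraries, with none in 2 of them. After 2 h at 1% CO2 the libraries held 10.5, 20.2, 22.3 and 12.3 normalized counts of Spry4, and after 4 h 6.40, 10.5, 13.6 and 17.4. With NaOH they held 6.5, 7.79, 8.53 and 9.58 after 2 h and 4.24, 4.58, 1.94 and 1.06 after 4 h. The treated libraries of 1% CO2 and of NaOH at 2 h were all above the control libraries, whereas the lowest library of NaOH at 4 h lay within their range. Because of the few control counts, the change is given as the ratio of summed counts with its 95% exact interval. It was 29.2 (9.59 to 145) and 19.4 (6.15 to 98.2) after 2 h and 4 h at 1% CO2, and 14 (4.28 to 72.2) and 5.16 (1.39 to 28.5) after 2 h and 4 h of NaOH. All 4 comparisons were called by edgeR, with adjusted p of 1e-08, 1.1e-06, 2.8e-05 and 0.019 in that order. The last call was lost without control replicate 2 or 4 (adjusted p = 0.053 and 0.055) or without NaOH replicate 1 or 2 at 4 h (adjusted p = 0.073 and 0.058).

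Spry2, a further Sprouty inhibitor (chromosome 14, 105891947 to 105896819), rose in all treated groups, with its peak after 2 h of NaOH. Its level was 6.69, 5.58, 3.34 and 3.20 normalized counts at 0 h. It was 18.9, 13.8, 14.8 and 13.5 after 2 h and 14.6, 15.1, 16.1 and 19.0 after 4 h at 1% CO2. It was 31.6, 23.4, 24.4 and 22.3 after 2 h and 11.0, 10.3, 18.4 and 12.7 after 4 h of NaOH. No treated library overlapped the control libraries. The log2FC of Spry2 from 0 h was 1.59 ± 0.30 and 1.66 ± 0.31 at 1% CO2 (adjusted p = 8.3e-05 and 4.4e-05) and 2.35 ± 0.28 and 1.38 ± 0.31 with NaOH (adjusted p = 1.1e-08 and 2.9e-04).

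Spred1, which brings the RAS inhibitor neurofibromin to the membrane (chromosome 2, 117121071 to 117182279), was well expressed at 0 h and rose at 1% CO2. Control libraries held 55.7, 55.0, 36.8 and 64.0 normalized counts. At 1% CO2 they rose to 108, 127, 136 and 121 after 2 h and 100.5, 120.9, 109 and 115 after 4 h, all above the control libraries. With NaOH they stood at 62.2, 64.9, 47.5 and 61.7 after 2 h, within the control range but for a library just above it, and at 102.5, 76.7, 85.4 and 95 after 4 h, above it. The log2FC of Spred1 was 1.2 ± 0.13 and 1.04 ± 0.14 at 1% CO2 (adjusted p = 6.4e-09 and 1.9e-07). With NaOH it was 0.12 ± 0.16 at 2 h (adjusted p = 0.55) and 0.75 ± 0.14 at 4 h, where the adjusted p was 2.7e-05 but the fold change below 2. The call at 4 h of 1% CO2 stood close to the 2-fold limit and was lost without control replicate 3 (log2FC 0.95) or replicate 2 of 1% CO2 at 4 h (log2FC 0.997).

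Spred2, the close relative of Spred1 (chromosome 11, 19924442 to 20024026), was low throughout. It ranged from 1.11 to 4.78 normalized counts at 0 h, from 4.86 to 8.42 and from 4.95 to 14 after 2 h and 4 h at 1% CO2, and from 3.19 to 8.53 and from 9.50 to 16 after 2 h and 4 h of NaOH. Only at 1% CO2 and after 4 h of NaOH did no library overlap the controls. Spred2 was called after 4 h of NaOH (log2FC 1.94 ± 0.38, adjusted p = 5.3e-05) and after 4 h at 1% CO2 (1.31 ± 0.44, adjusted p = 0.016), and not at 2 h of either treatment (1.02 ± 0.44 at 1% CO2 and 0.68 ± 0.49 with NaOH, adjusted p = 0.077 and 0.27). Without replicate 2 of 1% CO2 at 4 h, the library with 14 normalized counts, the log2FC there was 0.93 with an adjusted p of 0.14, and without control replicate 1 it was 1.21 at an adjusted p of 0.050.

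Etv5, a PEA3 factor (chromosome 16, 22381313 to 22439570), climbed from 2 h to 4 h in both treatments and stood higher at 1% CO2 at both times. Control libraries held 4.46, 3.98, 2.23 and 2.4 normalized counts. At 1% CO2 the level was 38.9, 31.6, 26.0 and 46.0 after 2 h and 96.8, 105.8, 103 and 67.9 after 4 h. With NaOH it was 6.5, 0, 3.65 and 10.6 after 2 h and 29.7, 29.8, 33.0 and 43.3 after 4 h. The libraries of NaOH at 2 h overlapped those at 0 h, and the 0 came from the shallowest library. The other 3 treated groups did not overlap the control. The log2FC of Etv5 from 0 h was 3.30 ± 0.32 and 4.72 ± 0.28 at 1% CO2 (adjusted p = 2.8e-10 and 3.1e-16). With NaOH it was 0.81 ± 0.50 at 2 h (adjusted p = 0.19, 95% interval -0.20 to 1.83) and 3.25 ± 0.33 at 4 h (adjusted p = 1.6e-10).

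Etv4, its paralogue (chromosome 11, 101769747 to 101785310), was low at 2 h and higher at 4 h of both treatments. Its counts summed to 2 over the control libraries. Treated libraries ranged from 4.05 to 5.61 and from 7.90 to 13.7 normalized counts after 2 h and 4 h at 1% CO2, and from 1.06 to 6.09 and from 5.73 to 16.1 after 2 h and 4 h of NaOH. The ratio of summed counts of Etv4 to 0 h, with its 95% exact interval, was 11.9 (2.87 to 105) and 29.1 (7.52 to 249) at 1% CO2 and 9.68 (2.15 to 89.0) and 25.1 (6.51 to 215) with NaOH. All 4 were called by edgeR, with adjusted p of 8.1e-04, 2.7e-07, 0.0031 and 3.6e-07. Except for a library of NaOH at 2 h, the treated libraries of Etv4 were above the control libraries, which held at most 1.11. After 2 h Etv4 stood at 4.63 ± 0.70 normalized counts (SD, n = 4) at 1% CO2 and at 4.02 ± 2.20 (SD, n = 4) with NaOH.

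Among the 9 members tested, 7 were called higher than at 0 h after 2 h at 1% CO2, where 3.16% of all tested genes were called higher and 2.38% lower. After 4 h 8 were called higher (background 4.06% higher and 3.98% lower), all but Dusp1. After 2 h of NaOH 5 were called higher (background 6.68% and 5.33%), namely Dusp4, Dusp6, Spry2, Spry4 and Etv4. After 4 h of NaOH 7 were (background 7.60% and 7.96%), all but Dusp1 and Spred1. No member was called lower than at 0 h by edgeR or by DESeq2, and 1, Dusp1, was lower at an unadjusted p under 0.05 after 2 h and after 4 h at 1% CO2, with 0 after NaOH. These counts carry limits. The mean at 0 h was below 5 normalized counts for 6 of the 9 (Dusp4, Spry2, Spry4, Spred2, Etv4 and Etv5). These 6 passed the minimum only through treated libraries, so their mean over all treated libraries had to lie above that at 0 h. That rise had to be larger the lower the level at 0 h, but the minimum did not set which groups carried it. Only Dusp1, Dusp6 and Spred1 would have passed at 0 h. The members were also chosen with earlier results of these data known, so the counts beside the background are a description. The median log2FC of the 9 was 2.14 and 2.18 at 1% CO2 and 2.35 and 1.94 with NaOH, beside -0.01, -0.01, -0.03 and 0.00 over all tested genes. With library totals in place of TMM factors the higher share of all called genes moved from 57.1% to 48.6% and from 50.5% to 36.3% after 2 h and 4 h at 1% CO2, and from 55.7% to 38.4% and from 48.8% to 30.7% after 2 h and 4 h of NaOH. No called result of a member changed direction. In bulk RNA, fewer cells of a type and less RNA per cell cannot be told apart.

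**Figure D2:**
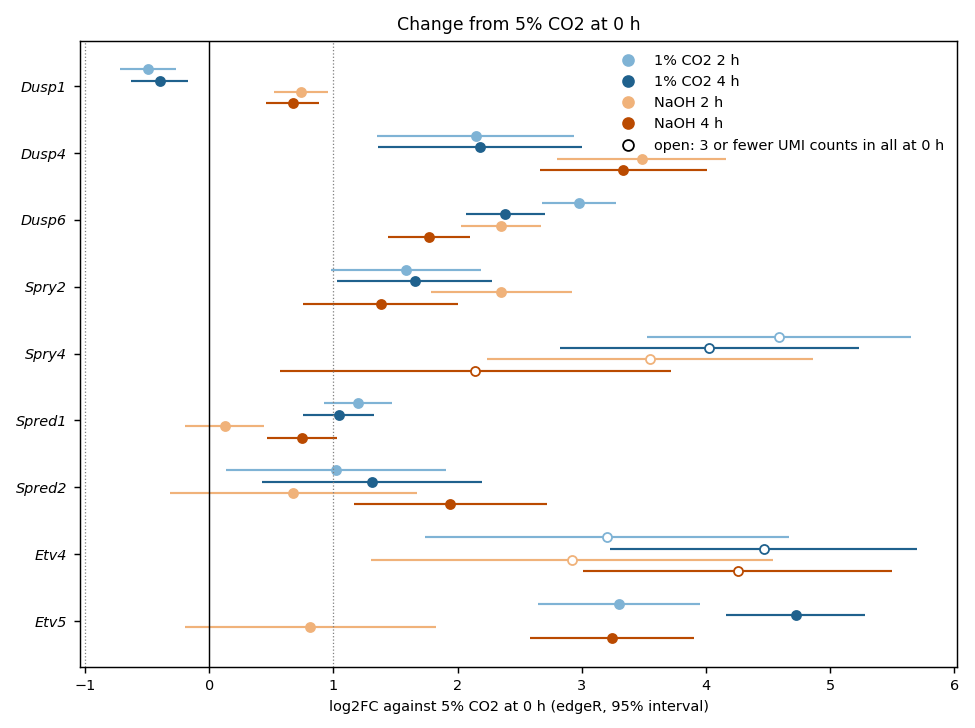
log2 fold change (x axis) of the 9 tested members against control cells at 0 h, with 95% intervals, for 1% CO2 (blue) and NaOH (orange) at 2 h and 4 h. Dotted lines mark a 2-fold change and open symbols mark Spry4 and Etv4, with 3 or fewer counts in all at 0 h. Dusp1 lies left of 0 at 1% CO2 and right of 0 with NaOH, and Etv5 at 2 h of NaOH (0.81) lies far from its other 3 values (3.25 to 4.72).

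Cells at 1% CO2 and NaOH-treated cells were then compared at the same time, a comparison that does not use the 0 h libraries. The nuclear phosphatases Dusp1 and Dusp4 were lower at 1% CO2, whereas Spry4 and Etv5 were higher, at both times. Dusp5, the other nuclear phosphatase, was called lower at 1% CO2 at 2 h (log2FC -2.11 ± 0.74, adjusted p = 0.028) and not at 4 h (0.38 ± 0.75, adjusted p = 0.75) when all genes of the table were tested. Dusp1 was lower by a log2FC of -1.24 ± 0.11 at 2 h and -1.07 ± 0.11 at 4 h (adjusted p = 4.3e-11 and 1.6e-09). Dusp4 was lower by -1.34 ± 0.26 and -1.16 ± 0.27 (adjusted p = 1.4e-04 and 8.2e-04). For both phosphatases every library at 1% CO2 was below every NaOH library of the same time. Etv5 was higher at 1% CO2 by 2.49 ± 0.33 at 2 h and 1.48 ± 0.19 at 4 h (adjusted p = 1.8e-07 and 1.5e-07), again without overlap. Spry4 was higher by 1.04 ± 0.35 and 1.88 ± 0.46 (adjusted p = 0.022 and 0.0015), without overlap at either time.

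Spred1 was called higher at 1% CO2 at 2 h (log2FC 1.07 ± 0.14, adjusted p = 2.8e-07), where its libraries did not overlap, and not at 4 h (0.30 ± 0.13, adjusted p = 0.084). Dusp6 differed by less than 2-fold at both times, with a log2FC of 0.63 ± 0.13 and 0.62 ± 0.13 (adjusted p = 2e-04 and 4.5e-04), higher at 1% CO2. Spry2 lay lower at 1% CO2 at 2 h by less than 2-fold (-0.77 ± 0.24, adjusted p = 0.012), with a difference of 0.28 at 4 h (95% interval -0.27 to 0.82). Spred2 and Etv4 were not called at either time. For Etv4 the 95% interval of the difference ran from -0.78 to 1.35 at 2 h and from -0.50 to 0.92 at 4 h, and for Spred2 from -0.56 to 1.24 and from -1.34 to 0.07. These intervals hold differences of 2-fold for both genes at 2 h and for Spred2 at 4 h.

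Relative to NaOH, 3 members were called higher and 2 lower in cells at 1% CO2 at 2 h, beside 2.75% and 3.76% of all tested genes, and 2 were higher and 2 lower at 4 h, beside 3.30% and 3.18%. With library totals the higher share of all called genes moved here from 42.2% to 59.4% at 2 h and from 51.0% to 62.2% at 4 h. Some calls rested on few libraries. The call of Spry4 at 2 h was lost without replicate 2 or 3 of 1% CO2 (log2FC 0.93 and 0.88, adjusted p = 0.070 and 0.079) or without replicate 1 of NaOH (0.91, adjusted p = 0.083), and with the replicate number as a block it was 0.97 (adjusted p = 0.038). That of Spred1 at 2 h fell to 0.98 without replicate 3 of NaOH, that of Dusp1 at 4 h to -0.99 without replicate 2 of NaOH, and Spred2 at 4 h became called lower (-1.01, adjusted p = 0.047) without replicate 2 of 1% CO2.

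**Figure D3:**
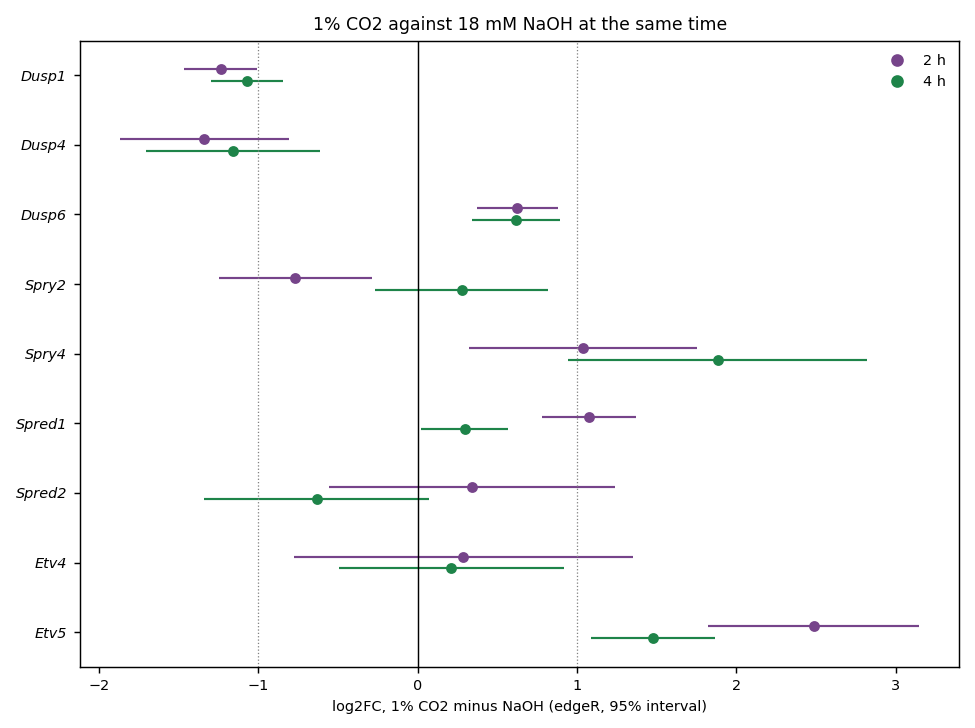
log2 fold change (x axis) of 1% CO2 against 18 mM NaOH at 2 h and at 4 h for the 9 tested members, with 95% intervals. Dotted lines mark a 2-fold change. Dusp1 and Dusp4 lie at -1.34 to -1.07 at both times, and Etv5 at 2.49 and 1.48.

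From 2 h to 4 h Etv4 and Etv5 climbed in both treatments, Dusp6 stood lower at 4 h in both by less than 2-fold, and Spry4 fell with NaOH. At 1% CO2 Etv5 rose by a log2FC of 1.42 ± 0.19 (adjusted p = 1.4e-06) and Etv4 by 1.26 ± 0.40 (adjusted p = 0.029), which were the 2 members called higher, with none lower (background 0.668% higher and 0.658% lower, and 1 member lower at an unadjusted p under 0.05). Dusp6 stood at -0.59 ± 0.12 there (adjusted p = 9.2e-04). The call of Etv4 was lost without replicate 1 or 2 of the 2 h group or replicate 1 or 3 of the 4 h group, at adjusted p from 0.054 to 0.11. With library totals the higher share of all called genes in this comparison moved from 50.4% to 39.4%.

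With NaOH, Etv5 rose from 2 h to 4 h by 2.43 ± 0.33 (adjusted p = 3.4e-07), Etv4 by 1.33 ± 0.45 (adjusted p = 0.022) and Spred2 by 1.26 ± 0.39 (adjusted p = 0.012), and Spry4 fell by 1.40 ± 0.50 on the log2 scale (adjusted p = 0.030). These were 3 members called higher and 1 lower, beside 2.72% and 4.07% of all tested genes. Dusp6 was at -0.58 ± 0.14 (adjusted p = 0.0011), Spry2 at -0.97 ± 0.24 (adjusted p = 0.0021) and Spred1 at 0.62 ± 0.15 (adjusted p = 0.0014), all short of 2-fold. Of these, the calls of Spred2 and Etv4 were lost without replicate 1 of NaOH at 2 h (adjusted p = 0.062 and 0.054) or replicate 4 (0.059 and 0.11), and that of Etv4 also without replicate 1 at 4 h (0.18). The call of Spry4 was lost without replicate 3 or 4 of either time (adjusted p = 0.060 to 0.094), and Spry2 became called lower without replicate 3 or 4 at 2 h or replicate 3 at 4 h (log2FC -1.003, -1.05 and -1.19).

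Whether the course from 2 h to 4 h differed between the treatments was tested as an interaction, the change at 1% CO2 minus the change with NaOH. Spry2 was called, at 1.04 ± 0.36 (adjusted p = 0.043): its level held from 15.3 ± 2.53 to 16.2 ± 1.94 normalized counts (SD, n = 4) at 1% CO2 and went from 25.4 ± 4.19 to 13.1 ± 3.69 (SD, n = 4) with NaOH. This single call, beside 2.59% of all tested genes called higher and 1.90% lower, was lost without any of 12 of the 16 libraries (adjusted p = 0.052 to 0.11) and with the replicate block (1.02, adjusted p = 0.060). Spred1 differed by less than 2-fold (-0.78 ± 0.20, adjusted p = 0.0062). Etv5 was at -1.01 ± 0.41 and was not called (adjusted p = 0.088), but was without replicate 3 of 1% CO2 at 2 h (-1.14, adjusted p = 0.045) or replicate 4 of NaOH at 2 h (-1.499, adjusted p = 0.031). For Dusp6 the difference was -0.01 ± 0.19, with a 95% interval of -0.39 to 0.38.

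Transcripts of the cascade that leads to ERK were counted in the 4 comparisons with 0 h. Of all tested genes, 3.16%, 4.06%, 6.68% and 7.60% were called higher there, and 2.38%, 3.98%, 5.33% and 7.96% lower. These shares also stand beside the counts of the lists that follow. The counts of the cascade and of the p38 and JNK kinases are too small to tell from them. Of 20 listed genes of the ERK cascade, 18 were in the table and 17 tested, and 1, the adaptor Gab1, was called, lower after 2 h and 4 h at 1% CO2 (log2FC -1.03 ± 0.15 and -1.06 ± 0.16, adjusted p = 1.4e-06 at both times). Both calls stood close to the 2-fold limit and were lost by DESeq2 (-0.98 and -0.99), without control replicate 4 (-0.96 and -0.98), without replicate 1 or 3 of 1% CO2 at 2 h (-0.93 and -0.996) and without replicate 1 at 4 h (-0.95). After 4 h of NaOH Gab1 stood at -0.95 ± 0.15 (adjusted p = 1.8e-06), which was called with library totals (-1.14) and without replicate 1 of that group (-1.001). No other gene of the cascade was called, and with NaOH none was by edgeR with TMM factors or by DESeq2 (at an unadjusted p under 0.05, 4 genes lay above and 2 below 0 h after 2 h, and 6 above and 3 below after 4 h), where the adaptor Grb2 stood at 0.81 ± 0.08, the kinase Map2k1 (MEK1) at 0.89 ± 0.11 and Map2k2 (MEK2) at 0.46 ± 0.07 after 4 h. The median log2FC of the 17 lay between 0.02 and 0.15 in the 4 comparisons with 0 h. Of the p38 and JNK kinases, 9 of 11 listed genes were tested and 1 was called higher in each of the 4 comparisons, Map2k3, which activates p38 (log2FC 1.28 ± 0.09 and 1.08 ± 0.09 at 1% CO2, and 2.03 ± 0.09 and 1.96 ± 0.09 with NaOH), while 1, 0, 0 and 2 were called lower. With library totals Map2k3 after 4 h at 1% CO2 fell short of 2-fold (0.965).

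Several growth factors that feed the cascade from outside the cell rose. Of 21 listed ligands and receptors 13 were in the table and 12 tested, and 2 and 4 were called higher after 2 h and 4 h at 1% CO2 and 5 at each time of NaOH, with none lower (at an unadjusted p under 0.05, 0 at 1% CO2 and 1 at each time of NaOH; 0 by DESeq2). Hbegf, a ligand of the EGF receptor, stood at 17.1 ± 2.52 normalized counts (SD, n = 4) at 0 h, at 133 ± 2.91 and 87.1 ± 9.21 after 2 h and 4 h at 1% CO2, and at 1271 ± 115.5 and 274 ± 8.61 after 2 h and 4 h of NaOH. Its log2FC was 2.92 ± 0.13 and 2.32 ± 0.14 at 1% CO2, and 6.18 ± 0.12 and 3.96 ± 0.12 with NaOH (adjusted p from 7.8e-16 to 9.9e-32). Ereg, another EGF receptor ligand, rose from 4.09 ± 0.95 to between 90.4 and 132 in the treated groups (log2FC 4.38 to 4.87, adjusted p of 6e-14 or less). Its mean at 0 h was below the minimum of 5 normalized counts. Ereg was thus tested, and counted among the ligands called higher, only through its treated libraries. Pdgfa, a ligand of the PDGF receptors, was called with NaOH (1.71 ± 0.09 and 2.07 ± 0.09) and not at 1% CO2 (0.21 ± 0.09 and 0.51 ± 0.09).

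Most of the other known outputs of ERK that were tested rose after 2 h of both treatments. Of 14 listed genes 12 were tested, and 7 and 6 were called higher after 2 h and 4 h at 1% CO2 and 9 and 8 after 2 h and 4 h of NaOH, with 1 lower in the last. With library totals 3 in place of 8 were called higher after 4 h of NaOH, Ier3 (0.90) and Ccnd1 (0.87) among those lost, and Ccnd1 was lost after 2 h at 1% CO2 (0.98). It was lost there too without replicate 4 of 1% CO2 (0.99), as was Ier3 after 4 h of NaOH without replicate 2 (0.97). The list's median log2FC was 1.11, 1.097, 2.30 and 1.04 in that order. Fosl1, an AP-1 subunit, went from 48.0 ± 11.5 normalized counts (SD, n = 4) at 0 h to 842 ± 24.7 and 735 ± 43.6 at 1% CO2, and to 2315 ± 120.0 and 1053 ± 184 with NaOH (log2FC 4.16, 3.96, 5.62 and 4.48). Plaur, the urokinase receptor, rose in the same 4 comparisons (log2FC 1.91, 1.25, 3.13 and 2.47), and Ier3, an immediate early gene, was called with NaOH (2.52 and 1.099) and not at 1% CO2 (0.74 and 0.15). Ccnd1, the cyclin of early G1, was highest after 4 h at 1% CO2, at 915.5 ± 115.3 against 261.8 ± 34.4 at 0 h (log2FC 1.80 ± 0.11). Egr1, an immediate early transcription factor, took another course: it stood at 352 ± 31.7 at 0 h, at 661 ± 24.2 and 233 ± 19.0 after 2 h and 4 h at 1% CO2, and at 259 ± 35.9 and 80.1 ± 12.8 after 2 h and 4 h of NaOH, and was called only at the last, lower (log2FC -2.13 ± 0.11, adjusted p = 6.9e-18).

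Relatives of the members were counted in the same way, beside 3.16%, 4.06%, 6.68% and 7.60% of all tested genes called higher and 2.38%, 3.98%, 5.33% and 7.96% called lower in the 4 comparisons with 0 h. Of 16 other DUSP phosphatases 12 were tested, and 0 and 1 were called higher after 2 h and 4 h at 1% CO2 and 1 and 2 after 2 h and 4 h of NaOH, with 0, 1, 0 and 2 lower, counts too small to tell from those shares. Dusp10, which acts on p38 and JNK, rose with NaOH (log2FC 1.85 ± 0.11 and 1.152 ± 0.11) and stood at 0.76 and 0.99 at 1% CO2, whereas Dusp8 fell after 4 h of both treatments (-1.08 ± 0.19 at 1% CO2 and -2.10 ± 0.21 with NaOH). With library totals the call of Dusp10 after 4 h of NaOH ended (0.96). At 4 h of 1% CO2 Dusp10 became called with DESeq2 size factors, with only the groups compared, or without control replicate 1 or 2 or replicate 3 or 4 of 1% CO2 (1.0006 to 1.04). The call of Dusp8 there ended by DESeq2 (-0.98), without control replicate 1 (-0.98) and without replicate 1 or 2 of 1% CO2 (-0.93 and -0.96). Dusp23 fell after 4 h of NaOH (-1.61 ± 0.19) and Dusp3 stood at 0.84 ± 0.09 after 2 h of NaOH without being called. Of 15 other inhibitors of RAS-ERK signalling 12 were tested, with 2, 3, 2 and 3 called higher in the same order and none lower (2, 2, 3 and 3 at an unadjusted p under 0.05 and 0 by DESeq2). Errfi1, a feedback inhibitor of the EGF receptor, rose in each (log2FC 2.59 ± 0.17 and 1.62 ± 0.19 at 1% CO2, 3.35 ± 0.17 and 1.65 ± 0.18 with NaOH). Spry1, a Sprouty gene named after its values were seen, also rose in each (1.21, 1.147, 1.06 and 1.44), though its call after 2 h of NaOH was lost with library totals (0.87), by DESeq2 (0.94), and without control replicate 2 (0.97) or NaOH replicate 3 (0.996). Il17rd lay the other way in each without being called (-0.96, -0.40, -0.73 and -0.89, adjusted p = 5.9e-05, 0.064, 0.0014 and 5.8e-05). Spred3 was also below 0 h in each (-0.50, -0.56, -0.16 and -0.43) and not called. With library totals 1 gene of this list was called lower after 2 h at 1% CO2 and 1 after 4 h of NaOH. Lrig1, which lowers receptor levels, was called after 4 h at 1% CO2 (1.22 ± 0.13), and Rasal2, which turns RAS off, after 4 h of NaOH (1.22 ± 0.15). Rasa3, another RAS inhibitor of that kind, was not called against 0 h and stood at 0.35 and 0.92 at 1% CO2 (1.0007 and called at 4 h without replicate 4) and at -0.81 and -0.72 with NaOH.

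Of 14 other ETS factors 10 were tested, and none was called at 1% CO2, where Etv4 and Etv5 rose (3 higher at each time, and 0 and 1 lower, at an unadjusted p under 0.05, and 0 by DESeq2). Of all tested genes 3.16% and 4.06% were called higher there, and none of 10 cannot be told from that. Etv1, another PEA3 factor, fell below the minimum for testing. Its raw counts summed to 7 at 0 h, 20 at each time of 1% CO2, and 1 and 2 after 2 h and 4 h of NaOH. Without a count minimum 1 other ETS factor was called higher at each time of 1% CO2. With NaOH 1 was called higher after 2 h and 3 after 4 h, beside 6.68% and 7.60% of all tested genes. Ets1 stood at 87.1 ± 1.87 normalized counts (SD, n = 4) at 0 h and at 356 ± 23.7 and 202 ± 8.67 after 2 h and 4 h of NaOH (log2FC 2.04 ± 0.10 and 1.21 ± 0.11), against 0.41 and 0.20 at 1% CO2. Etv6, a repressor, and Elk3, a partner of serum response factor, were called after 4 h of NaOH (1.78 ± 0.12 and 1.22 ± 0.13). Ets2 stood at 0.86 ± 0.12 after 2 h of NaOH and was not called.

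**Figure D4:**
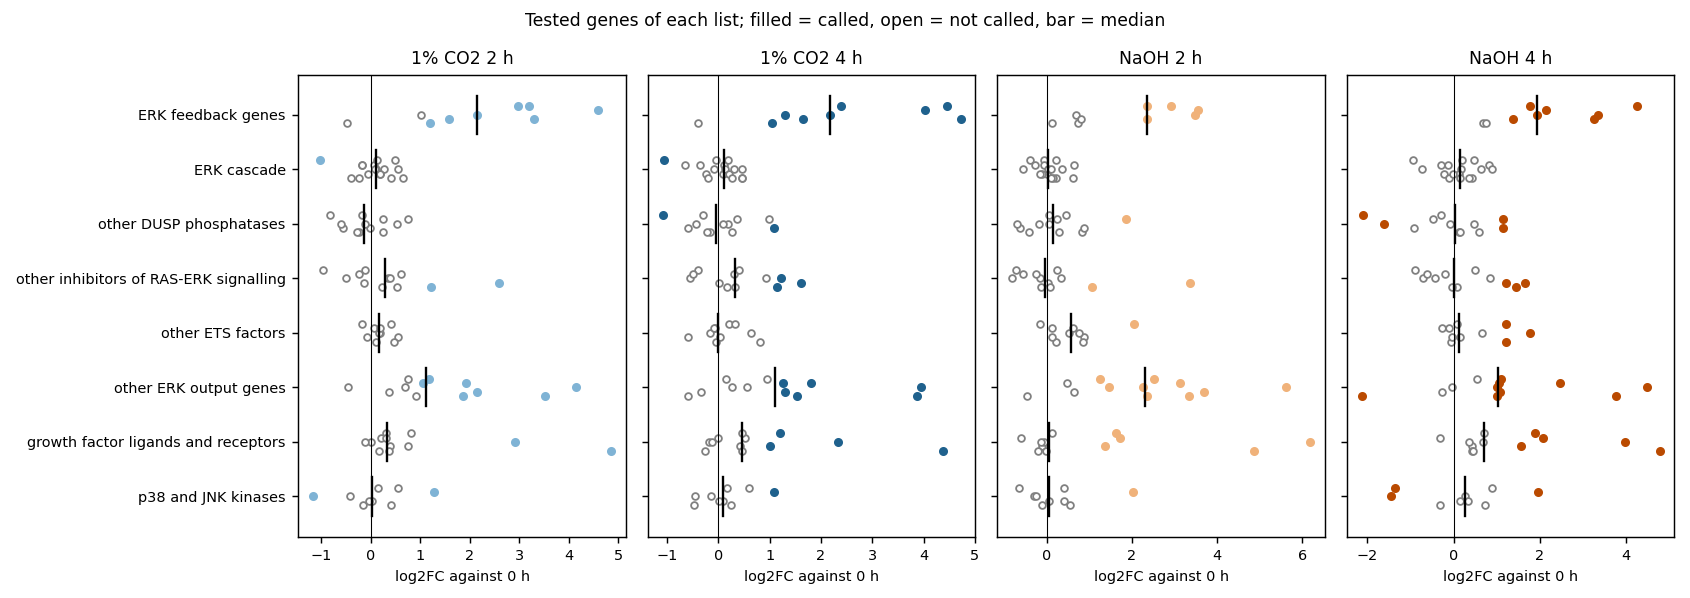
log2 fold change against 0 h (x axis) of the tested genes of the ERK feedback list and 7 related lists (rows), 1 panel for each treated group. Filled points were called, open points were not, and vertical bars are list medians. The medians of the ERK feedback genes (1.94 to 2.35) and of other ERK outputs (1.04 to 2.30) lie to the right of 0, and those of the ERK cascade lie between 0.02 and 0.15. Dusp4, Spry2, Spry4, Spred2, Etv4 and Etv5 passed the count minimum only through treated libraries. A higher mean over their treated libraries than at 0 h was thus built in, though not a rise in each group. The medians of the ERK feedback genes include these genes.

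Genes whose level followed that of a member over the 20 libraries were ranked by Pearson's r of log2 library-scaled counts, as a description, since libraries of a group share their treatment. Among the genes most like Dusp6 were Bcl2l1, which encodes the survival protein BCL-XL (r = 0.949), and Cttnbp2nl (0.935), of 7679 genes ranked. Bcl2l1 stood at 281 ± 10.5 normalized counts (SD, n = 4) at 0 h, at 795 ± 28.0 and 687.5 ± 26.1 after 2 h and 4 h at 1% CO2, and at 592.5 ± 44.5 and 563.5 ± 57.9 after 2 h and 4 h of NaOH. Dusp6 was likewise highest after 2 h at 1% CO2 and lowest at 0 h. Most like Spry4 were Cdt1, which licenses replication origins (r = 0.912), Cyth3 (0.905) and Dusp6 itself (0.892). Most like Etv5 were Ank, a membrane protein that controls pyrophosphate (r = 0.934), Terf2, a telomere-binding protein (0.926), and Chtf8 (0.923). Ank stood at 856 ± 45.8 normalized counts (SD, n = 4) at 0 h, at 1537 ± 38.1 and 2687 ± 65.3 after 2 h and 4 h at 1% CO2, and at 893 ± 39.0 after 2 h and 1685 ± 167 after 4 h of NaOH.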

How the data were processed

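The deposited table holds UMI counts per gene, which the authors made with the UTAP pipeline 1.10: cutadapt 1.15, STAR 2.5.2b on mm10 (2.4.2a in the submitters' processing notes) and HTSeq-count 0.9.1 with RefSeq gene models lengthened by 1000 bases (5′) and 100 bases (3′). The strand setting of the counting is not stated in these sources. The deposited signal columns, the authors' counts divided by DESeq2 1.16.1 size factors (largest deviation 5.82e-11), were used only for that check. Counts of all 20 libraries were fitted in 1 edgeR 4.0.16 quasi-likelihood model (R 4.3.3, TMM factors, common dispersion 0.0103) over 9726 genes, after 1349 with a mean below 5 normalized counts were left out. The model was tested on simulated data. Normalized counts are scaled to the mean effective library size. MARS-seq counts do not depend on transcript length.

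The members and lists were chosen with earlier results of these data known. All members are named, with at most 4 genes of each other list, those of smallest adjusted p against 0 h, plus Egr1, Fosl1, Ereg, Hbegf and Ccnd1. Spry1, Etv1, Il17rd and Spred3 were chosen after their values were seen. Also named are the 3 genes of highest r with Dusp6, Spry4 and Etv5 (prior count 2, mean of 20 or more normalized counts). A gene that this rule names beside Dusp6 is not reported here. For Spry4, Etv4 and Dusp5 against 0 h, where at most 3 control counts were seen, ratios of summed counts with exact 95% intervals stand in for fitted folds. Alternatives were other size factors, library totals, DESeq2 1.42.0, other count minimums, only the groups compared, the replicate block, and leaving out each library. Library pairs of a group differed by more than sampling noise (chi-square per degree of freedom 2.08 to 10.6 in 30 pairs). Markers of muscle, endothelial, fat, epithelial and immune cells outside the table were not analysed here.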

Additional observations from a re-analysis of the deposited data

Results flagged for a closer look

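Of 50 combinations of a member and a group, 1 held a library far from the rest: Dusp5 in control replicate 4, at 0.7999 normalized counts (1 count) where the other 3 control libraries had none. For normally distributed values chance alone sets about 1 in 20 groups apart in this way. That rate does not hold for this group, where 1 molecule alone set the library apart. In the main fit the adjusted p of the interaction was at most 0.05 for Spry2, with a log2FC of 1.04 (1% CO2 minus NaOH), and for Spred1, at -0.78. The result of Spred1 was short of 2-fold. The call of Spry2 was lost by DESeq2, with library totals, without a count minimum, with the replicate block and without most of the single libraries. From 2 h to 4 h Spry2 stood at a log2FC of 0.07 at 1% CO2 and -0.97 with NaOH, and Spred1 at -0.16 and 0.62.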

How the results depend on the processing

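Over the fits that left out 1 library, 676 member results kept their call or the lack of one, 38 lost a call and 6 gained one. Over the other settings 508 kept theirs and 14 lost a call. A change of direction was looked for only where a result was called, and none was found. Members called higher than at 0 h numbered 7 to 7, 6 to 8, 5 to 5 and 6 to 7 (1% CO2 at 2 h and 4 h, NaOH at 2 h and 4 h) with 1 library left out, and 0 were called lower. From 2 h to 4 h, 1 to 2 members were called higher at 1% CO2, and 1 to 3 higher and 0 to 1 lower with NaOH. Between the treatments at 4 h, 1 to 3 were lower at 1% CO2, and in the interaction 0 to 1 were higher and 0 to 1 lower. With a minimum mean of 20 only Dusp1, Dusp6, Spred1 and Etv5 were tested. Then 3, 3, 1 and 2 members were called higher than at 0 h, 1 higher from 2 h to 4 h in each treatment and 0 lower with NaOH, 1 lower in cells at 1% CO2 against NaOH for 2 h, 1 higher and 1 lower for 4 h, and 0 in the interaction. With DESeq2 at the study settings, 1 member was called higher from 2 h to 4 h in each treatment, 0 lower with NaOH and 0 in the interaction. DESeq2 ended the calls of Spred2 (log2FC 0.90) after 4 h at 1% CO2 and Spry4 (0.79) after 4 h of NaOH against 0 h, of Etv4 (0.915) from 2 h to 4 h at 1% CO2, of Spry4 (-0.88), Spred2 (0.95) and Etv4 (0.91) from 2 h to 4 h of NaOH, of Spry4 (0.88) between treatments at 2 h and of Spry2 (0.90) in the interaction. Library totals ended those of Spred1 (0.93) after 4 h at 1% CO2, Dusp1 (-0.99) between treatments at 4 h and Spry2 (0.99) in the interaction. With library totals alone, 1 member was lower against NaOH for 4 h, 0 were called in the interaction, and the median of all genes moved to between -0.21 and 0.12 in the 9 tests; without a filter 0 were called in the interaction. The replicate block also gave 0 there, and otherwise changed only the call of Spry4 between treatments at 2 h (log2FC 0.97). Same-numbered libraries of different groups did not deviate together (correlation -0.23 to 0.19 in 40 pairs, above 0.1 in 3, beside -0.24 to 0.31 for different numbers). No pairing by number was thus seen. This cannot exclude one, as a weak shared deviation could stay hidden in the spread between libraries. Counts of all called genes moved by over 1.5 times for lower calls against 0 h (231, 387 and 518 after 1% CO2 for 2 h and 4 h and NaOH for 2 h) to 135, 227 and 339 with DESeq2, whose fold changes are shrunken, and to 93, 165 and 223 at a minimum of 20. Library totals moved the 518 to 790 and the 267 higher calls against NaOH for 2 h to 422. The other all-gene counts that moved were calls between treatments or times, and the 774 lower calls after 4 h of NaOH (392 at a minimum of 20). Of those, higher and lower calls from 2 h to 4 h went from 65 and 64 to 35 and 33 with DESeq2 and to 29 and 30 at a minimum of 20 at 1% CO2, and from 265 and 396 to 169 and 259, and to 155 and 239, with NaOH. Between treatments, the 267 higher calls at 2 h went to 145 and 130, the 366 lower to 237 at a minimum of 20, and the 321 higher at 4 h to 188 and 158. Of the counts over the related lists against 0 h, the one with the greatest move was that of other ERK outputs called higher after 4 h of NaOH, from 8 to 3 with library totals; the other moves were of 1 or 2 genes. Depth limits Dusp5, Spry4, Etv4 and Spred2 most.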
